A study of Mus musculus with 6 samples.

Results

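Corticotropin-releasing hormone (Crh), its receptors Crhr1 and Crhr2 and its binding protein Crhbp were followed across the cell types of the mouse stress axis. The 4 genes were taken by symbol from the 27998 genes of the deposited matrices, and each symbol matched 1 gene in all 6 libraries. Crh is the peptide that neurons of the paraventricular nucleus of the hypothalamus (PVN) release toward the pituitary, and it acts on corticotropes mainly through Crhr1, a receptor that raises cyclic AMP. Corticotropes then release corticotropin, cut from the Pomc precursor, which drives glucocorticoid output from the adrenal cortex. Crhr2 binds the related urocortin peptides with higher affinity than Crh, and Crhbp is a secreted protein that binds Crh and limits how much of it reaches the receptors.

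The study profiled single cells of 3 tissues, the extended PVN (dissected by hand from a brain slice), the pituitary and the adrenal gland, with 10x Genomics droplet libraries that read the 3′ ends of transcripts. All animals were C57BL/6 mice of 10 weeks with no genetic change named in the labels. Each tissue gave 1 library from unstressed controls and 1 from mice after 21 days of chronic social defeat, in which a mouse is repeatedly exposed to an aggressive resident, and each library was a pool of 5 mice. With 1 library per condition there was no replicate, so no test between conditions was possible, and stress, pool and dissection cannot be told apart. Values below are given as control, then stress, and intervals are 95% intervals that cover counting error only.

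After filtering, 2161 to 4944 cells per library were kept, from totals of 29059956 to 53244403 UMIs (unique molecular identifiers, each standing for 1 captured transcript), and the lowest barcode held 2238 to 3536 UMIs. Pairs of libraries shared 10 to 39 barcodes, at most 0.974% of the smaller library. Cell classes were rebuilt by clustering without the 4 genes and carry the ending -like. PVN neurons below means every neuron-like cell of the dissected extended PVN, and which of them lay in the nucleus itself was not tested. The neuron-like class was supported by Snap25, with a UMI in 96.8% and 96.6% of its cells, and the corticotrope-like class by Pomc, in 100% of its cells in both libraries, and by the corticotrope factor Tbx19, at 237.6 and 236.8 CPM (UMIs of the gene scaled to a common total) against 1.6 and 1.4 CPM in all other pituitary cells. Markers of non-neuronal cells within the neuron-like class were at 358.4 and 379.9 CPM summed over 6 astrocyte genes, 68.7 and 53.4 CPM over 7 oligodendrocyte genes and 46.4 and 36.2 CPM over 7 microglia genes.

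The genes lay on 4 chromosomes and overlapped no other annotated gene (GRCm38). Crh (ENSMUSG00000049796) lies at chr3:19693401-19695396 on the minus strand and Crhbp (ENSMUSG00000021680) at chr13:95431371-95444924 on the minus strand. Crhr1 (ENSMUSG00000018634) lies at chr11:104132855-104175523 on the plus strand and Crhr2 (ENSMUSG00000003476) at chr6:55090049-55133016 on the minus strand. The 250 bases before the start of the receptor genes are shown because Crhr1 was read in corticotropes and Crhr2 was not, while both were read in PVN neurons. They come from RefSeq on GRCm38.p6, written 5′ to 3′ on the gene's strand, with a TATAAA match in capitals.
Crhr1, chr11:104132531-104132780, plus strand: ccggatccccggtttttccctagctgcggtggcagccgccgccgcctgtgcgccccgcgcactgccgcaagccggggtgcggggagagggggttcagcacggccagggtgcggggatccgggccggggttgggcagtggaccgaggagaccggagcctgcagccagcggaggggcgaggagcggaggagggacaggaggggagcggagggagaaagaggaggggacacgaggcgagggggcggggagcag
Crhr2, chr6:55133017-55133266, minus strand: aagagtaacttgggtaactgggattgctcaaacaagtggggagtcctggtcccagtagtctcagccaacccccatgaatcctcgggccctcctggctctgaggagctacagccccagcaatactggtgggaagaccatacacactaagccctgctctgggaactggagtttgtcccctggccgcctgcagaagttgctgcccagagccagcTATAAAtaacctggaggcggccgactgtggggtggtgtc
The Crhr1 stretch was 74.8% G and C and the Crhr2 stretch 57.6%, against a median of 52.4% over all 32851 promoter windows. TATAAA, searched on both strands, began at position -39 of Crhr2 and was not in the Crhr1 window, and 12.4% of all windows held it. The Crhr2 window also held 1 CANNTG match, a motif in 66.2% of windows. Neither window held TGACG or the longer TGACGTCA, letters of the cyclic AMP response element, which 17.8% and 1.55% of all windows held.

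Crh was read almost wholly in PVN neurons, and its level there was 2.79 times higher in the control than in the stress library. The 1578 control neurons held 643 Crh UMIs in 85 cells and the 1568 stress neurons 224 UMIs in 56 cells. These neurons had 93.2% and 96.6% of all Crh UMIs of their libraries. Crh UMIs were thus found in 5.39% (4.32 to 6.62) and 3.57% (2.71 to 4.61) of neurons. The level was 34.6 CPM (32.0 to 37.4) in control and 12.4 CPM (10.8 to 14.1) in stress neurons, a log2 ratio of stress over control of -1.48 (-1.71 to -1.26). The other named PVN cells held 11 UMIs in 11 of 1922 cells and 6 UMIs in 6 of 1882 cells, shares of 0.572% and 0.319%, at median depths of 4787 and 4630 UMIs against 10774 and 10710 in neurons. No such cell held more than 1 Crh UMI. In neurons thinned to 2000 UMIs, 2.53% and 1.40% carried Crh, against 0.156% and 0.213% of the other cells, so the share in neurons was above the share in cells that should lack the gene in both libraries.

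**Figure D1:**
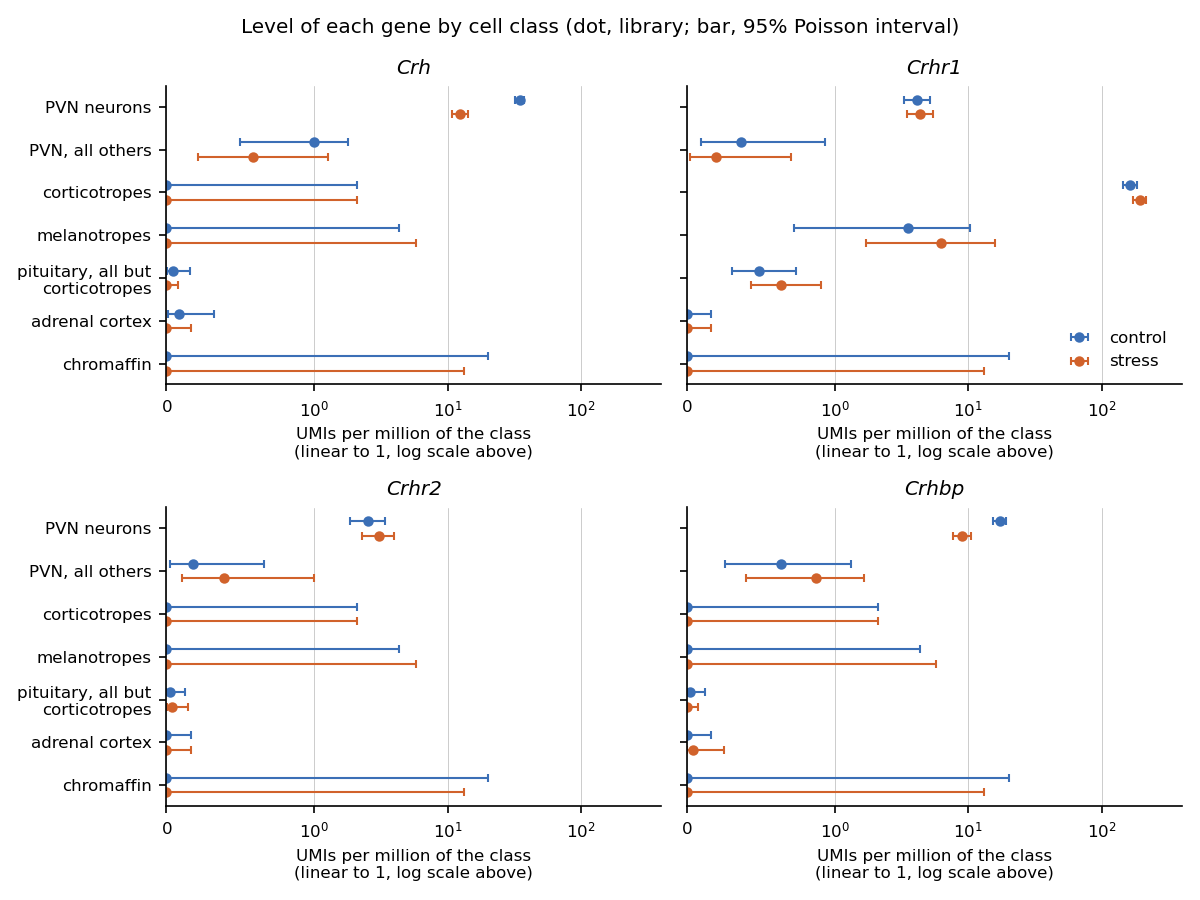
Level of each gene in CPM (linear below 1, log above) in 7 cell groups of the 3 tissues, with control in blue, stress in orange and bars for the 95% Poisson interval. Crh and Crhbp stood highest in PVN neurons, where control lay above stress (34.6 against 12.4 CPM and 17.2 against 9.01 CPM), and Crhr1 stood highest in corticotropes.

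Crh was the 1 member of 4 whose level in neurons differed by 2 fold or more (a log2 ratio of at least 1 in size). Of all 14345 genes with at least 20 UMIs over both neuron groups, 228 did, or 1.59%, and 159 of them (1.11%) were lower in the stress library, as Crh was. The median log2 ratio of all these genes was 0.02. The call depended on the setting: with subclusters weighted to 1 mix Crh stood at -0.98 and Crhbp at -1.12, and after subtracting the ratio in other PVN cells at -0.76 and -1.03, so that Crhbp and not Crh then passed 2 fold. Those other cells held few UMIs, 11 and 6 of Crh and, in the named classes, 7 and 9 of Crhbp, so the subtracted values are imprecise.

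Most Crh transcripts sat in few cells. Neurons with at least 5 Crh UMIs numbered 35 in control (2.22% of neurons) and 16 in stress (1.02%), and they held 87.7% and 67.4% of the Crh UMIs of neurons. The richest single cell held 42 UMIs in control and 22 in stress. Neurons with at least 10 Crh UMIs numbered 23 and 8, neurons with 5 to 9 numbered 12 and 8, and neurons with a single UMI numbered 33 and 20. The libraries were closest at 2 to 4 Crh UMIs, held by 17 control and 20 stress neurons. Among carrying neurons the mean was 7.56 and 4.0 UMIs and the median 3 and 2.

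**Figure D2:**
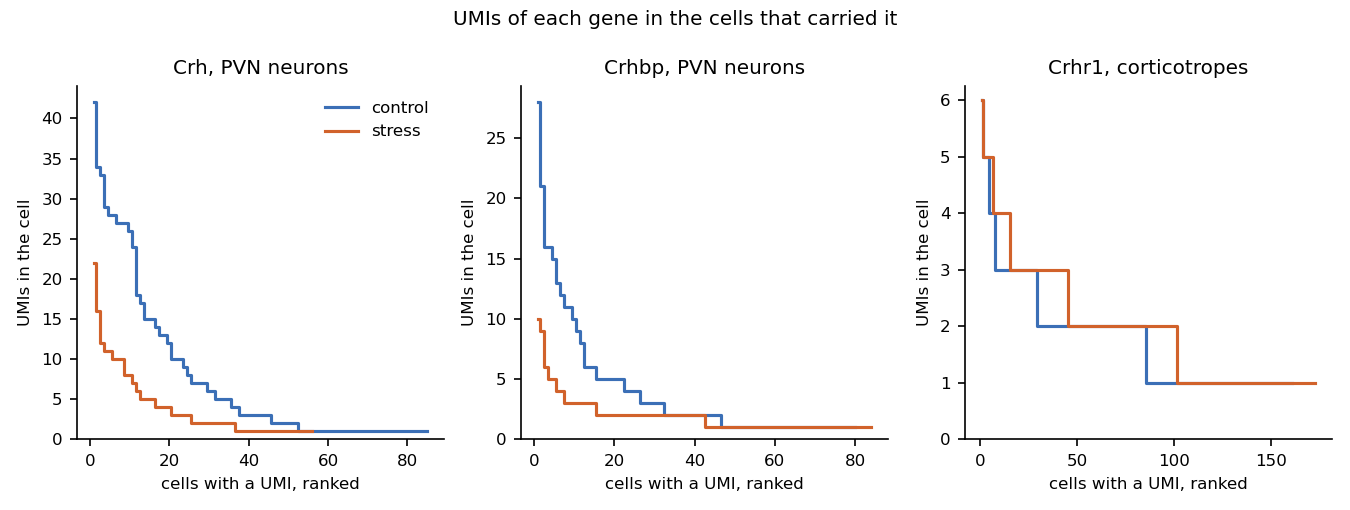
UMIs per carrying cell, cells ranked from the highest, for Crh and Crhbp in PVN neurons and Crhr1 in corticotropes, control in blue and stress in orange. The Crh and Crhbp curves of the control library started higher (42 and 28 UMIs against 22 and 10) and the Crhr1 curves of both libraries started at 6 UMIs.

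The neurons rich in Crh had the marks of glutamatergic PVN neurons more often than neurons without Crh. Otp, a homeobox factor needed to form Crh neurons, had a UMI in 33 of the 35 control cells (94.3%), against 20.4% of control neurons without Crh, and in 13 of the 16 stress cells (81.2%), against 14.7%. Sim1, a second factor of PVN development, was found in 15 and 9 rich cells (42.9% and 56.2%), against 8.6% and 6.8% of neurons without Crh. Pou3f2, a POU factor that acts with them, was found in 23 and 10 rich cells (65.7% and 62.5%), against 18.6% and 14.4%. All 3 factors were thus more frequent in the rich cells of both libraries at full depth.

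Slc17a6, the vesicular glutamate transporter, had a UMI in 29 control and 13 stress rich cells (82.9% and 81.2%), against 36.2% and 28.8% of neurons without Crh. The GABA transporter Slc32a1 went the other way, with 5 and 6 rich cells (14.3% and 37.5%) against 59.1% and 70.2%. More glutamate than GABA marker UMIs were counted in 22 of 35 rich cells (62.9%, 44.9 to 78.5) and 10 of 16 (62.5%, 35.4 to 84.8), against 28.3% and 21.4% of neurons without Crh. More GABA UMIs were counted in 5 and 6 rich cells (14.3% and 37.5%), against 65.2% and 75.1%, and equal numbers in 8 and 0 rich cells. Depth differed between the sets, with medians of 14122 and 20147 UMIs in the rich cells and 10607 and 10559 in neurons without Crh. After thinning to 2000 UMIs, Otp was found in 57.1% and 56.2% of rich cells against 10.2% and 7.4%, and Slc17a6 in 37.1% and 37.5% against 16.5% and 14.4%. Both thus stood above the neurons without Crh at equal depth as well. Sim1 was then in 0% of control rich cells against 2.01% and in 12.5% of stress rich cells against 1.72%. Pou3f2 was in 22.9% against 5.02% in control and in 0% against 3.44% in stress, so at that depth neither factor was higher in both libraries. None of the 35 rich control cells had a UMI of Crhr1, Crhr2 or Crhbp, which allows a UMI in up to 8.57% of such cells, and 1 of the 16 rich stress cells had Crhr1.

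Several peptides and receptors were read beside Crh. Pdyn (prodynorphin) was found in 15 and 8 rich cells (42.9% and 50%), against 21.8% and 14.1% of neurons without Crh, and Gal in 24 and 9 (68.6% and 56.2%), against 39.3% and 34.2%. Nos1, the neuronal nitric oxide synthase, was found in 14 and 8 (40.0% and 50%), against 19.5% and 18.0%, and Cartpt in 14 and 7, against 24.2% and 20.2%. Nr3c1 was found in 71.4% and 56.2% of rich cells, against 42.7% and 40.1% of neurons without Crh, and Reln in 34.3% and 31.2%, against 12.8% and 11%. Calb1 (calbindin) was found in 30 and 13 rich cells, Vgf, a secretory granule protein, in 28 and 10, and the mineralocorticoid receptor gene Nr3c2 in 6 and 1. Part of these differences was not seen at equal depth. After thinning to 2000 UMIs, Nr3c1 was in 31.4% and 25% of rich cells against 11.9% and 10.5%, and Gal, Nos1, Calb1 and Vgf also stood above the neurons without Crh in both libraries. Pdyn was then in 11.4% against 11.3% in control and 6.25% against 6.22% in stress. In control, Cartpt was in 5.71% against 9.58% and Reln in 2.86% against 3.68%, below the neurons without Crh.

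Other peptides and markers were as frequent as in neurons without Crh, less frequent or unlike between libraries. Tac1 was found in 5 and 2 rich cells, Penk (proenkephalin) in 8 and 5, Trh in 3 and 5, Calb2 in 12 and 6, and Npy1r, a neuropeptide Y receptor, in 3 and 0. Sst was found in 13 and 12 rich cells (37.1% and 75.0%), against 41.9% and 44.7% of neurons without Crh. The GABA-synthesising enzymes Gad1 and Gad2 were found in 6 and 5 and in 12 and 9 rich cells. Cck (cholecystokinin) was found in 0 and 2, Vip and Nts (neurotensin) each in 0 and 1, Npy in 1 and 0, and Pvalb and the glutamate transporter Slc17a8 in none.

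**Figure D3:**
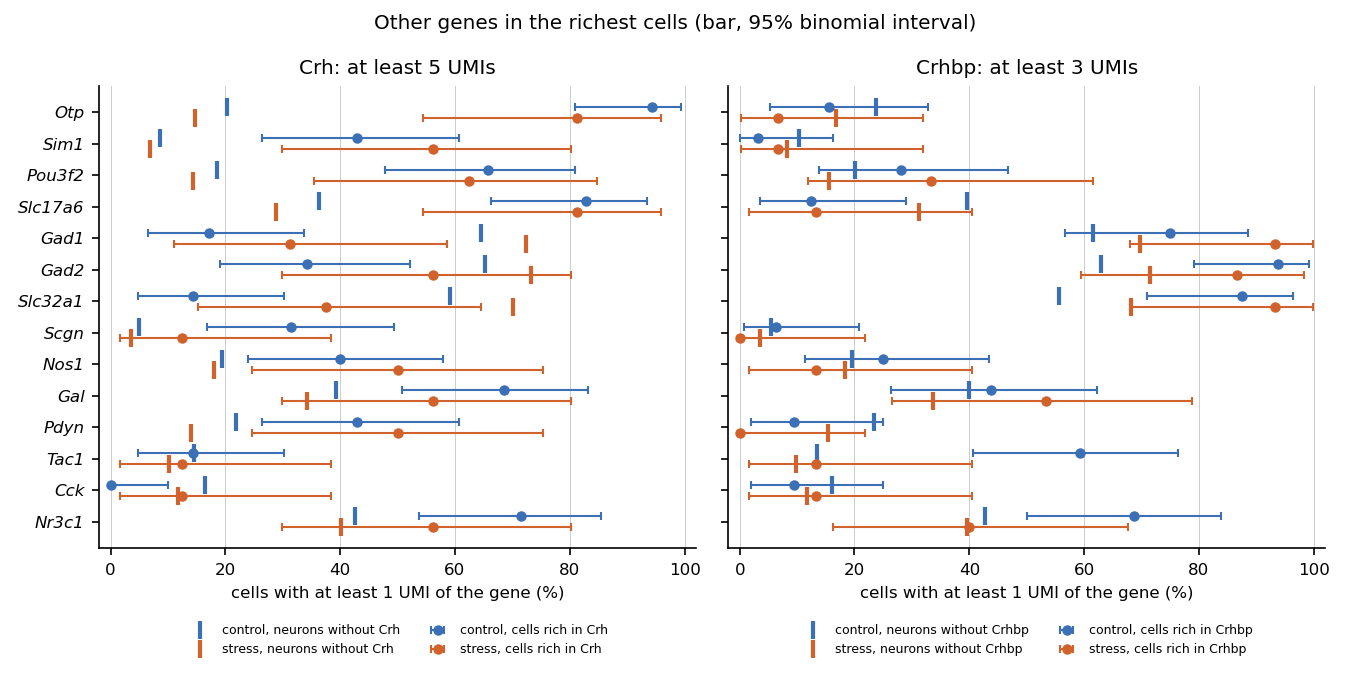
Percent of cells with at least 1 UMI of 14 genes in neurons with at least 5 Crh UMIs and in neurons with at least 3 Crhbp UMIs (dots with 95% binomial intervals) and in neurons without the gene (ticks), control in blue and stress in orange. Otp and Slc17a6 stood above the ticks in the cells rich in Crh, at 94.3% and 82.9% in control, and Gad2 and Slc32a1 in those rich in Crhbp, at 93.8% and 87.5%.

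The neurons were divided into 22 subclusters, numbered from 0 to 21 and described by their leading genes, and the Crh difference was not shared by the 3 subclusters that held most of it. Subcluster 12, led by Sst (somatostatin) and Spink8, held 390 Crh UMIs in 27 of 68 control cells and 36 UMIs in 5 of 29 stress cells. Its Crh level was 446.1 CPM (402.9 to 492.7) and 94.5 CPM (66.2 to 130.8), a log2 ratio of -2.22 (-2.77 to -1.74). It held 60.7% of the neurons' Crh UMIs in control and 16.1% in stress. Without it the log2 ratio of Crh over neurons was -0.43, and with all subclusters weighted to 1 mix in both libraries it was -0.98, so Crh was then short of 2 fold.

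Subcluster 4, led by Ghrh (growth hormone-releasing hormone) and Nxph4, held 148 UMIs in 28 of 141 control cells and 87 UMIs in 21 of 92 stress cells. Its level was 61.7 and 51.5 CPM, a log2 ratio of -0.26 with an interval that includes 0 (-0.66 to 0.13). Subcluster 5, led by Hcrt (orexin) and Slc17a6, held 35 UMIs in 11 of 103 cells and 52 UMIs in 15 of 90 cells, or 56.9 and 81.0 CPM (log2 ratio 0.50, -0.14 to 1.17). Its cells had median mitochondrial shares of 11.1% and 10.3%, against 3.50% and 3.21% in subcluster 12, and the part of this in the Crh values was not tested. In subclusters 4 and 5 the 2 libraries could not be told apart at this depth. Of the stress Crh UMIs, 38.8% lay in subcluster 4 and 23.2% in subcluster 5, against 23.0% and 5.44% in control.

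Subcluster 12 was led by Sst, but its Crh lay mostly in cells with little Sst. Of its 20 control neurons rich in Crh, 4 had an Sst UMI. Its cells were therefore also divided by Sst, at 10 UMIs, a limit chosen after the values were seen. Cells with fewer than 10 Sst UMIs numbered 33 in control, 2.09% of neurons (1.44 to 2.92), and 5 in stress, 0.319% (0.104 to 0.743). They held 381 and 30 Crh UMIs, 23 of the 33 and 3 of the 5 carried Crh, and the median in carrying cells was 15 and 11 UMIs. Their Crh level was 1048 CPM (945.7 to 1159) and 476.3 CPM (321.3 to 679.9). Cells with at least 10 Sst UMIs numbered 35 and 24 and held 9 and 6 Crh UMIs, or 17.6 and 18.9 CPM. The libraries thus differed in how many neurons low in Sst and rich in Crh they held. Whether the level within them differed cannot be told. The stress value rested on 5 cells, and the intervals leave out differences between cells.

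Genes read beside Crh also differed between these subclusters. Scgn, the calcium-binding protein secretagogin, was found in 11 of the 20 rich control cells of subcluster 12 and in 0 of 9 in subcluster 4. Agtr1a, an angiotensin II receptor, was found in 9 of 20 and 0 of 9, and Nr3c1, the glucocorticoid receptor, in 19 of 20 and 4 of 9. Reln (reelin) had the opposite pattern, in 2 of 20 and 7 of 9. In the stress library, Agtr1a was found in all 4 rich cells of subcluster 12 and in 0 of 8 of subcluster 4, and Reln in 0 of 4 and 5 of 8. Agtr1a and Reln thus differed in the same direction in both libraries. The subclusters were made from the expression of both libraries together, and Agtr1a was among the leading genes of subcluster 12. The shared direction is therefore a description of these subclusters and not separate support.

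Single cells carried other parts of the count. In subcluster 18, led by Trh, all 26 control Crh UMIs came from 1 cell and the stress cells had none. In subcluster 1, led by Six3, 1 cell held 27 of 30 control UMIs and the stress cells held 32, with 16 in 1 cell. Subclusters 2, 10, 13, 14, 15, 16 and 20 had no Crh UMI in either library.

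**Figure D4:**
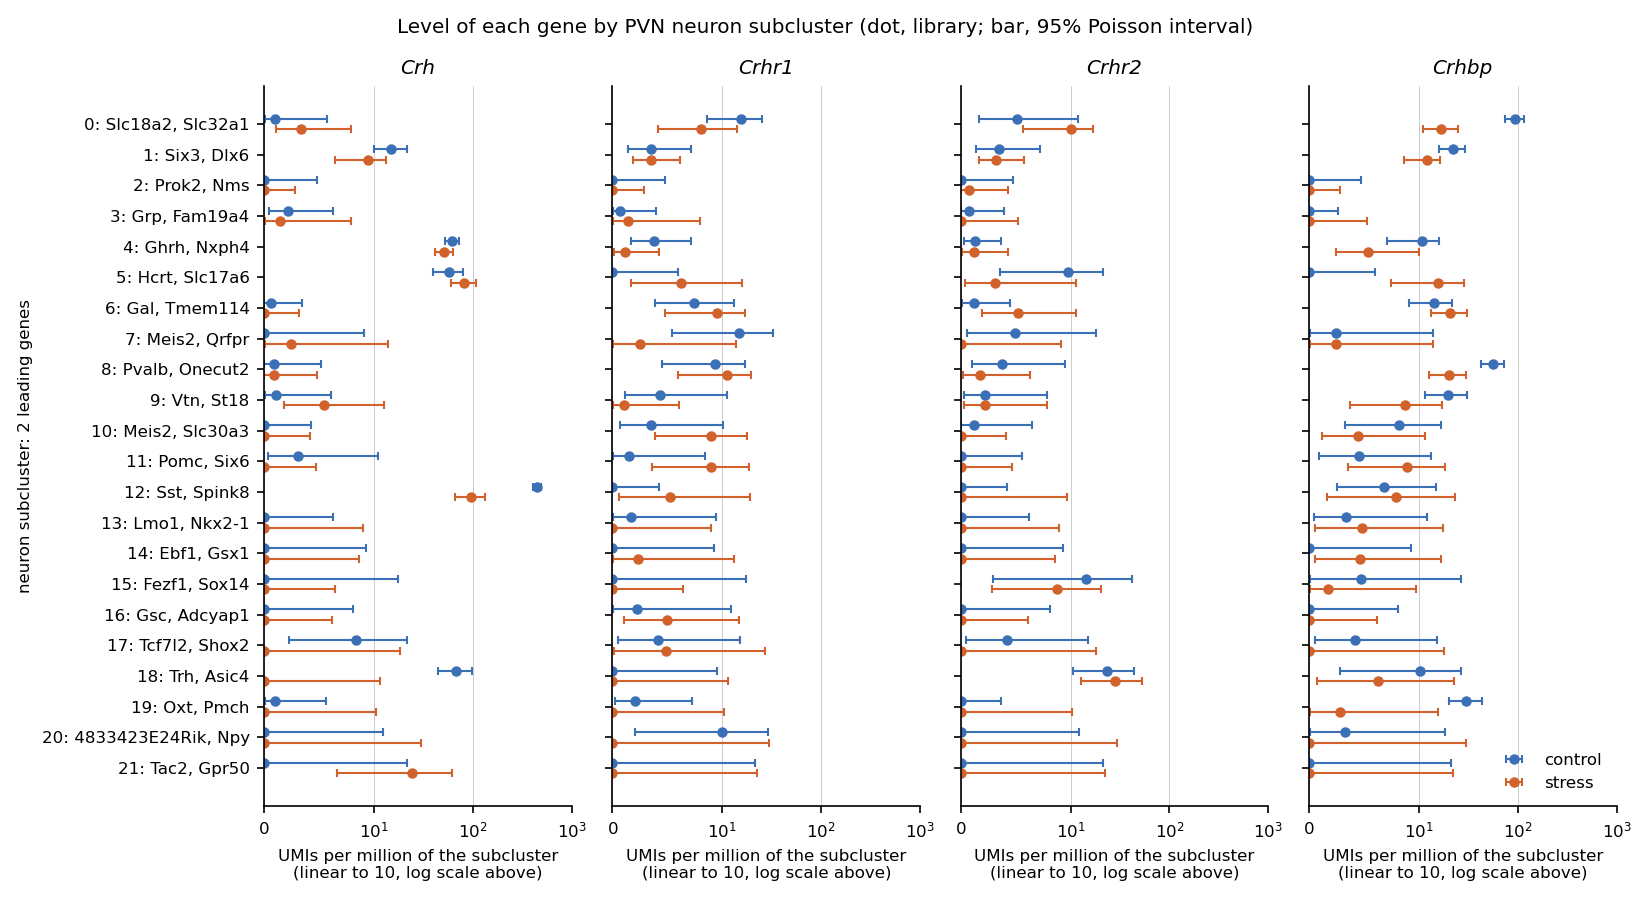
Level of each gene in CPM (linear below 10, log above) in the 22 neuron subclusters, control in blue and stress in orange, with 95% Poisson intervals. For Crh the libraries lay apart in subcluster 12 (446.1 and 94.5 CPM) and close together in subcluster 4 (61.7 and 51.5 CPM), and Crhbp lay apart in subclusters 0 and 8.

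The other ligands of these receptors were rare in the PVN neurons. Ucn3 (urocortin 3), which binds Crhr2, had 10 UMIs in 7 control cells and 2 UMIs in 2 stress cells. Ucn2 had 3 and 5 UMIs and Ucn had 0 and 1.

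Crhr1 was highest in corticotropes, and it was low but present in PVN neurons. Corticotrope-like cells numbered 276 and 249, at median depths of 6119 and 7245 UMIs. They held 287 Crhr1 UMIs in 161 control cells (58.3%, 52.3 to 64.2) and 341 UMIs in 173 stress cells (69.5%, 63.3 to 75.1). The other named pituitary cells, 4584 in each library without the 84 and 47 unnamed cells, held 22 UMIs in 20 cells (0.436%) and 31 UMIs in 31 cells (0.676%), at median depths of 9922 and 10181. The receptor of the corticotropes was thus far above the level of other pituitary cells, at 163.1 and 192.7 CPM against 0.487 and 0.638 CPM.

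Between conditions the log2 ratio of Crhr1 in corticotropes was 0.24 (0.01 to 0.47), from 163.1 CPM (144.8 to 183.1) in control to 192.7 CPM (172.8 to 214.3) in stress. It was not among the 333 of 9671 corticotrope genes (3.44%) that differed by 2 fold or more. At the same depth of 2000 UMIs per cell the share of corticotropes with Crhr1 was 31.9% and 32.5%. The ratio in the other named pituitary cells was 0.38 (-0.45 to 1.25), from few UMIs. Subtracting the ratio in all other kept cells, unnamed ones included, put the corticotrope value at -0.088. The 6 somatotrope markers summed to 38727 and 47746 CPM within corticotropes, and their part in the Crhr1 values was not tested.

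Crhr1 was read at few UMIs in many corticotropes. A single UMI was found in 76 and 72 cells, 2 UMIs in 56 and 56 cells, 3 to 4 UMIs in 25 and 39 cells, and 5 or more in 4 and 6 cells. No cell of either library held more than 6. Melanotrope-like cells, the other Pomc cells of the pituitary, held 3 Crhr1 UMIs in 109 cells and 4 in 88 cells, or 3.50 and 6.23 CPM. Crh, Crhr2 and Crhbp had no UMI in corticotropes, which allows a UMI of each in up to 1.09% and 1.20% of those cells and does not limit how many express it below detection.

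Genes that respond to Crh signalling in corticotropes were split between higher and lower. Of the 15 measured, 8 were higher and 7 lower in the stress library, with a median log2 ratio of 0.01 against -0.02 over all genes, of which 45.0% were higher. Cartpt, a peptide precursor, and Fos, an immediate-early gene, were higher by 2 fold or more, at log2 ratios of 1.61 (1.26 to 1.98) and 1.55 (1.43 to 1.67), and none was lower by that much. Over all corticotrope genes, 1.55% were higher by 2 fold or more and 1.89% lower. Cartpt was also higher in stress in all other kept pituitary cells, at 6.47 and 14.7 CPM, so its rise was not particular to corticotropes. Over all kept pituitary cells, corticotropes included, 2 genes of the list were higher by 2 fold or more, against 0.88% of all genes. The lowest of the list in corticotropes was Nr4a2, an orphan nuclear receptor, at -0.58 (-1.04 to -0.12). Pcsk1, the protease that cuts Pomc, was at 0.95 (0.62 to 1.30), while Pomc itself was at 0.01 and Avpr1b, the vasopressin receptor of corticotropes, at 0.14. The cyclic AMP pathway, through which Crhr1 acts, had 24 genes measured, with 12 higher, 12 lower and none by 2 fold. Its highest member with at least 50 UMIs was the adenylyl cyclase Adcy2, at 0.47 (-0.23 to 1.20), and its lowest the cyclic AMP phosphodiesterase Pde4d, at -0.75 (-1.38 to -0.16).

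In PVN neurons Crhr1 had 77 UMIs in 70 control cells (4.44%, 3.47 to 5.57) and 79 UMIs in 69 stress cells (4.40%, 3.44 to 5.54). Its level was 4.15 CPM (3.27 to 5.18) and 4.37 CPM (3.46 to 5.44), a log2 ratio of 0.07 (-0.40 to 0.55). Other PVN cells had 4 and 2 UMIs, in 0.208% and 0.106% of cells. Neuronal Crhr1 was thus above the share in non-neuronal cells, and the libraries differed by less than the counting error.

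Crhr1 was spread thinly over the neurons, and more GABA than glutamate marker UMIs were counted in 54 of the 70 and 59 of the 69 carrying cells (77.1% and 85.5%), against 62.1% and 73.3% of neurons without Crhr1. Subcluster 8, led by Pvalb (parvalbumin) and Onecut2, had 10 UMIs in 10 of 60 control cells (16.7%) and 13 in 13 of 76 stress cells (17.1%). Subcluster 0, led by Slc18a2 and Slc32a1, had 15 and 12 UMIs, and subcluster 6, led by Gal (galanin), had 12 and 11. Subcluster 12, with the most Crh in control, had 0 and 2. Gad2, a GABA-synthesising enzyme, had a UMI in 80.0% and 81.2% of the 70 and 69 carrying neurons, against 63.3% and 72.0% of neurons without Crhr1. Tac1, the substance P precursor, was found in 35.7% and 14.5% of carrying neurons, against 13.5% and 10.3%. Neither kind of marker was read in 0 of the 70 control carrying neurons, against 65 of 1508 without Crhr1. These shares are at full depth, and the part of depth in them was not tested.

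Crhr2 was read in few PVN neurons, a part of them in a subcluster led by Trh. PVN neurons held 47 UMIs in 40 control cells (2.53%, 1.82 to 3.44) and 55 UMIs in 43 stress cells (2.74%, 1.99 to 3.68). The level was 2.53 CPM (1.86 to 3.37) and 3.04 CPM (2.29 to 3.96), a log2 ratio of 0.26 (-0.32 to 0.86), which spans 0. Other PVN cells held 2 and 4 UMIs (0.104% and 0.213% of cells). No Crhr2 neuron held more than 4 UMIs.

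Subcluster 18, led by Trh (thyrotropin-releasing hormone) and Asic4, held 9 Crhr2 UMIs in 7 of 23 control cells (30.4%, 13.2 to 52.9) and 9 in 6 of 23 stress cells (26.1%, 10.2 to 48.4). That was 19.1% and 16.4% of the neurons' Crhr2 UMIs, at 23.3 CPM (10.7 to 44.2) and 28.1 CPM (12.8 to 53.3). Subcluster 15, led by Fezf1, stood at 14.2 and 8.74 CPM from 3 and 5 UMIs, so the 2 subclusters could not be ordered at this depth. Subcluster 12 had no Crhr2 UMI. Calb2 (calretinin) was found in 77.5% and 62.8% of Crhr2 neurons, against 50.1% and 52.4% of neurons without it, and Nr3c1 in 60.0% and 58.1%, against 43.0% and 39.5%. Most Crhr2 neurons, 60.0% and 67.4%, had more GABA than glutamate marker UMIs, against 62.8% and 74.0% of neurons without Crhr2. More glutamate UMIs were counted in 40.0% (24.9 to 56.7) and 32.6% (19.1 to 48.5), against 30.0% and 22.5%, which lie within those intervals. Shares in Crhr2 neurons are at full depth, and the part of depth in them was not tested.

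Crhbp was also lower in stress neurons, and the cells richest in it mostly had more GABA marker UMIs and held no Crh UMI. PVN neurons held 319 UMIs in 80 control cells (5.07%, 4.04 to 6.27) and 163 UMIs in 84 stress cells (5.36%, 4.30 to 6.59). The level was 17.2 CPM (15.3 to 19.2) and 9.01 CPM (7.68 to 10.5), a log2 ratio of -0.93 (-1.21 to -0.65), just short of 2 fold. The intervals of the carrying share overlapped, while the mean in carrying neurons was 3.99 and 1.94 UMIs. At least 5 UMIs were found in 22 control and 5 stress neurons, which held 69.9% and 21.5% of the Crhbp UMIs. Other PVN cells held 7 and 9 UMIs in 0.364% and 0.478% of cells.

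The Crhbp level was lower in the stress library in several subclusters. Subcluster 0, led by Slc18a2 and Slc32a1, held 91 UMIs in 17 of 185 control cells and 25 in 15 of 273 stress cells, or 93.2 CPM (75.0 to 114.4) and 16.8 CPM (10.9 to 24.8). Its log2 ratio was -2.45 (-3.17 to -1.82). Mitochondrial genes were 6 of its 10 leading genes, and its cells had median mitochondrial shares of 11.6% and 11.4% and median depths of 4777 and 4957 UMIs, whose part in the Crhbp values was not tested. Subcluster 8, led by Pvalb, held 60 UMIs in 12 of 60 cells and 23 in 12 of 76, with a log2 ratio of -1.47 (-2.25 to -0.77). Subcluster 1, led by Six3, held 44 and 41 UMIs, with a log2 ratio of -0.86 (-1.51 to -0.21). In subclusters 4 and 9 the ratios were -0.97 (-2.30 to 0.11) and -1.11 (-2.57 to 0.11), lower but with intervals that include 0. Subcluster 4 had more Slc17a6 than Gad2 in control, at 216.8 and 78.8 CPM, so not every subcluster with a lower value was inhibitory. Without subcluster 0 the ratio over neurons was -0.64, and with at most 5 UMIs counted per cell it was -0.39. Subcluster 6, led by Gal, held 23 and 24 UMIs, with a log2 ratio of 0.54 (-0.34 to 1.43). Single cells weighed in here too, since 1 control cell of subcluster 19, led by Oxt, held 28 of its 30 UMIs and 1 stress cell held all 10 UMIs of subcluster 5.

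Neurons rich in Crhbp, with at least 3 UMIs, numbered 32 in control and 15 in stress, at median depths of 16736 and 16246 UMIs against 10585 and 10515 in neurons without it. More GABA than glutamate marker UMIs were counted in 30 of the 32 and 13 of the 15 (93.8% and 86.7%), against 61.5% and 73.0% of neurons without Crhbp. Slc32a1 had a UMI in 87.5% and 93.3% of them, against 55.7% and 68.2% of neurons without Crhbp, and Slc17a6 in 12.5% and 13.3%, against 39.7% and 31.3%. Crhbp-rich neurons thus mostly had more GABA marker UMIs. Crh-rich neurons were mixed, with more glutamate UMIs in 22 of 35 and 10 of 16 and more GABA UMIs in 5 and 6. Tac1 was found in 19 of the 32 control cells (59.4%, 40.6 to 76.3) and 2 of the 15 stress cells (13.3%), against 13.5% and 9.8% of neurons without Crhbp. None of the rich cells had a Crh UMI, while 5 and 3 had a Crhr1 UMI.

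**Figure D5:**
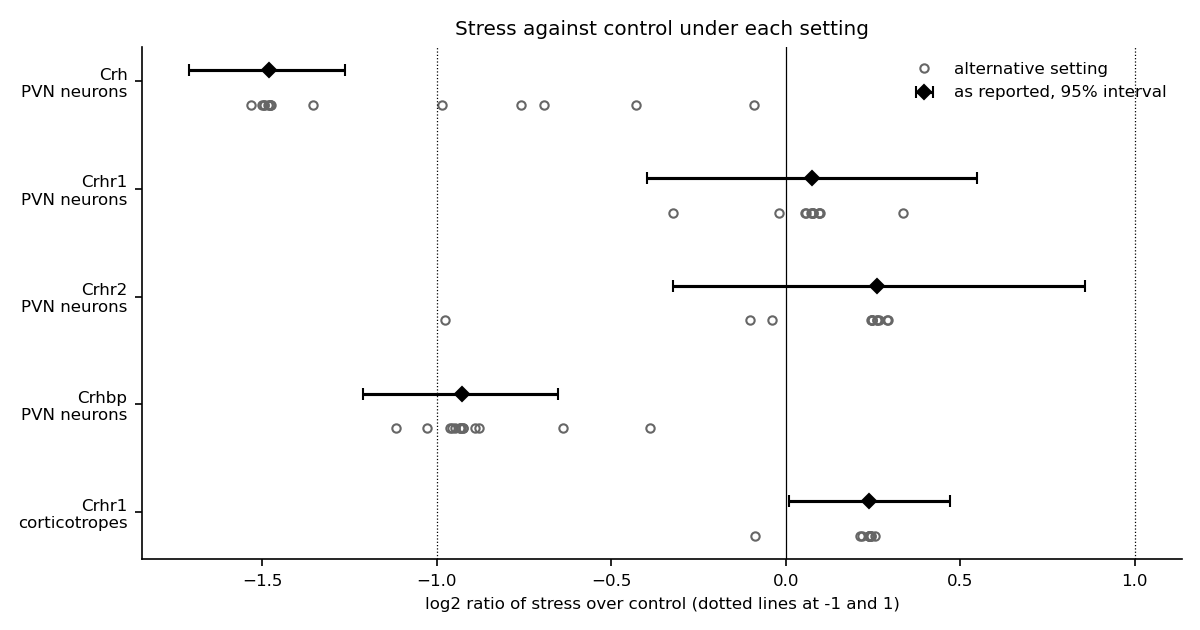
Log2 ratio of stress over control for the 4 genes in PVN neurons and Crhr1 in corticotropes, with the reported value and its 95% interval (diamond and bar) and the values under other ways of processing (open circles), and dotted lines at -1 and 1. Crh spread from -1.53 to -0.090. The last value, without cells of at least 5 Crh UMIs, had an interval that includes 0 (-0.57 to 0.39). Those cells were picked by their Crh count and held 87.7% and 67.4% of the neurons' Crh UMIs. That value thus shows where the difference lay and does not check the processing.

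Few neurons carried a pair of the genes, since each was found in few. Crh and Crhr1 shared 2 control and 1 stress neuron, where the product of their shares gives 3.77 and 2.46. Crh and Crhbp shared 2 and 1, against 4.31 and 3 from the product, and Crh and Crhr2 shared none, against 2.15 and 1.54. The pairs without Crh lay above that product in control. Crhr1 and Crhbp shared 6 and 10 neurons, against 3.55 and 3.70, which was 8.57% and 14.5% of the neurons with Crhr1 and 7.5% and 11.9% of those with Crhbp. Crhr1 and Crhr2 shared 6 and 3, against 1.77 and 1.89, and Crhr2 and Crhbp 4 and 2, against 2.03 and 2.30. These counts are small, and no test of them was made.

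The adrenal held almost no UMI of the 4 genes. Crh had 2 UMIs in control cortex-like cells and none in the stress library, Crhr2 and Crhbp had 1 UMI each in the stress library, and Crhr1 had none. With 2161 and 2742 cells, that allows a Crhr1 UMI in up to 0.139% and 0.109% of adrenal cells. Chromaffin-like cells numbered only 18 and 30, and their count of 0 allows a UMI of a gene in up to 16.7% and 10.0% of them. In the pituitary, Crh had 2 and 0 UMIs, Crhr2 1 and 2, and Crhbp 1 and 0.

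Genes of the Crh system's surroundings in PVN neurons showed smaller differences than Crh. Of 16 measured regulators of Crh transcription, 3 were higher and 13 lower in the stress library, none by 2 fold, with a median log2 ratio of -0.10 against 0.02 over all genes, of which 54.6% were higher. The lowest were Pou3f2 at -0.52 (-0.69 to -0.35) and Otp at -0.50 (-0.60 to -0.40), and Rest, a repressor of neuronal genes, was highest at 0.12. Within the subclusters with most Crh, Otp was at -0.06 (-0.35 to 0.21) in 12, -0.14 (-0.31 to 0.02) in 4 and 0.04 (-0.31 to 0.39) in 5, intervals that all include 0. The cyclic AMP list had 14 genes higher and 14 lower of 28 measured, none by 2 fold, from Adcy8 at -0.33 (-0.77 to 0.10) to Adcy7 at 0.31 (0.03 to 0.60), both adenylyl cyclases. Of 31 peptides and markers described beside Crh neurons, 9 were higher and 22 lower, with a median of -0.16, and 1 and 2 of them differed by 2 fold or more. Those were Vip (vasoactive intestinal peptide), at 1.27 (1.05 to 1.48), Oxt (oxytocin), at -1.13, and Npy (neuropeptide Y), at -1.06. The subcluster led by Oxt, number 19, had 34 control and 12 stress cells, and within it Oxt was higher in stress, at 0.46 (0.45 to 0.47). In all other subclusters Oxt was lower in stress, at -4.93 in subcluster 4 and -3.34 in subcluster 5. Over all neuron genes, 0.481% were higher by 2 fold or more.

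Across 60 clusters of the 3 tissues, the genes whose levels went most closely with each member were named by Pearson's r of log2(CPM + 1), as a description over clusters that share libraries. For Crh they were Neurod6 (0.88), Npvf (0.84), Fibcd1 (0.84), Lhx9 (0.82) and Sim1 (0.81). For Crhr1 they were Rnf207 (0.77), Mnx1 (0.75), Krt14 (0.74), Egfem1 (0.73) and Qrfpr (0.73), and for Crhr2 they were Nrip2 (0.79), 6330403A02Rik (0.78), Zic1 (0.77), Pde6a (0.76) and Htr2c (0.75). For Crhbp they were Lamp5 (0.97), Sp9 (0.94), Gpr26 (0.94), Hs3st4 (0.93) and Htr7 (0.93).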

How the data were processed

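The authors deposited unnormalised UMI counts per gene and barcode, made with Cell Ranger 2.1.1 on mm10, per the submitters' processing notes, which also name Scanpy without a role. For strand, cell calling and annotation the entry is: not given in the sources used here. A barcode was kept if it had 200 or more genes and no more than 25% of its UMIs from mitochondrial genes. Doublets were simulated (2 per cell), and the barcodes most like them were left out, their number set by library size. Both libraries of a tissue were clustered together (2000 variable genes, 30 principal components, 15 neighbours, Leiden resolution 1) without the 4 genes, and classes were named from at least 3 markers; part of the naming rules was set after clusters were seen. Neurons were then clustered again.

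Levels are CPM, UMIs scaled to a common total of the class, with exact Poisson intervals and shares have Clopper-Pearson intervals. Log2 ratios add 0.5 UMI and carry an exact conditional binomial interval. A gene was measured with at least 20 UMIs over both libraries. Where no UMI was found, the allowed share is 3 cells of the total. For thinned shares, each cell was drawn down to 2000 UMIs. The members and gene lists were chosen with earlier results of these data known. Within that, members were described in every class, and from each list the highest and lowest with at least 50 UMIs, and the partner list in neurons rich in Crh, were named; those past 2 fold were added. Subclusters, the division by Sst and the alternatives so named in the closing section were added after seeing the data. Coordinates came from GENCODE vM21 (27645 of 27998 IDs matched). The scripts were tested on simulated data. Python 3.11.15, numpy 2.4.6, scipy 1.17.1, pandas 2.3.3, scikit-learn 1.9.0, leidenalg 0.10.2 and matplotlib 3.10.9 were used.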

Additional observations from a re-analysis of the deposited data

How the results depend on the processing

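No paired analysis was possible because each tissue had 1 library per condition, so leaving out a replicate was not possible either. No direction reversed among called values, and the limits are few cells and 1 pool per condition. The Crh log2 ratio in neurons moved to -0.76 after subtracting the ratio in other PVN cells, which held 11 and 6 Crh UMIs. Among alternatives added after seeing the data, it moved to -0.98 with subclusters weighted to 1 mix and -0.43 without subcluster 12. Also among these, it moved to -0.69 with at most 5 UMIs counted per cell and to -0.090 without cells of at least 5 Crh UMIs. The interval of that last value, -0.57 to 0.39, includes 0. Leaving out subcluster 12, limiting the UMIs per cell and leaving out rich cells each select on the Crh counts themselves. They show which cells held the difference and do not check the processing. The other 10 values lay between -1.53 and -1.35. Crhbp, under alternatives of the same kind, moved to -0.64 without subcluster 0 and to -0.39 with at most 5 UMIs per cell. It otherwise lay between -1.12 and -0.88. After subtracting the ratio in other cells, Crhr2 in neurons stood at -0.98 (the named others held 2 and 4 UMIs) and Crhr1 in corticotropes at -0.088, both below 0 where the reported values were above it, and otherwise the latter lay between 0.21 and 0.26. Crhr1 in neurons stayed between -0.32 and 0.34.

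Neurons rich in Crh numbered 45 and 25 at 3 or more UMIs, 23 and 8 at 10 or more, and 9 and 1 at 5 or more after thinning. Among all deposited barcodes there were 37 and 16. With at least 50 UMIs per gene, 0.519% of neuron genes and 1.23% of corticotrope genes differed by 2 fold or more. Of the 5 genes most like Crh, Spearman's rho, the control libraries alone and the subclusters in place of neuron clusters kept 0, 2 and 0. For Crhr1 they kept 0, 2 and 2, for Crhr2 3, 0 and 1, and for Crhbp 1, 3 and 0, so the named genes depend on the setting.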

Other observations

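Genes of the Crh response were read in corticotropes both with and without a Crhr1 UMI. Nr3c1 had a UMI in 64.0% of control corticotropes with Crhr1 and 48.7% of those without, and in 62.4% and 59.2% in the stress library. Rasd1, a glucocorticoid-induced small G protein, was found in 87.6% and 75.7% in control and in 80.9% and 81.6% in stress. For Pcsk1 the shares were 29.2% and 23.5% in control and 54.3% and 46.1% in stress, so the stress library was higher whether or not Crhr1 was read. Depth differed too, with medians of 6315 and 5819 UMIs in control and 7626 and 6338 in stress, and its part in these shares was not tested.

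The barcodes left out as doublets held part of the counts. In the PVN they had 36 Crh UMIs in 7 control barcodes and 2 UMIs in 2 stress barcodes. All barcodes left out for any reason held 18 and 3 Crhbp UMIs in the PVN and 24 and 28 Crhr1 UMIs in the pituitary.

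The peptide genes Avp and Oxt had UMIs in most neurons, with and without Crh. Whether these UMIs came from the cells themselves was not tested, here or for the other peptides read beside Crh. Avp was found in 91.4% of the control neurons rich in Crh and 81.2% of control neurons without Crh, at 1611 and 4206 CPM. Oxt was found in 94.3% and 87.6%, at 479.6 and 7031 CPM. The mean of neurons without Crh includes subclusters with very high levels: in control, Avp stood at 53826 CPM in subcluster 19 and 21114 CPM in subcluster 2, and Oxt at 119713 CPM in subcluster 19. In control subclusters 0, 1 and 8, Avp was at 221.1, 154.8 and 141.5 CPM and Oxt at 322.5, 210.1 and 178.7 CPM, below the levels in the neurons rich in Crh. Other control subclusters stood above those neurons for Oxt, at 1108 CPM in 14, 2553 CPM in 4 and 16730 CPM in 5. All control cells of subcluster 12 together were at 1055 CPM of Avp and 223.1 CPM of Oxt.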
